A study of Mus musculus with 4 samples.

Results

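Malat1, Neat1 and 7 host genes of small nucleolar RNAs (snoRNAs), namely Gas5, Snhg1, Snhg3, Snhg5, Snhg6, Snhg8 and Snhg12, were measured in effector CD4 cells of mice with experimental autoimmune encephalomyelitis (EAE), the animal model of multiple sclerosis. These 9 long noncoding RNA genes were taken by their symbols out of the 23990 gene symbols of the transcript tables. All 9 passed the minimum on expression, a mean of 1 FPKM (sequenced fragments of a transcript divided by its length and by the library's depth) in at least 1 tissue, which left 10634 genes to test. Wild type C57BL/6 mice were injected with a peptide of the myelin protein MOG in complete Freund's adjuvant, followed by pertussis toxin. Their CD44+CD4 cells were sorted at disease onset from the spinal cord (CNS) or from draining lymph nodes (dLN), which were pooled. There were 2 libraries per tissue. According to the study's methods the sorted cells of both tissues were stimulated with PMA and ionomycin before RNA was taken, while the labels speak of freshly sorted cells and name no stimulation. The ages of the mice are not given in the sources used here, and nothing says how many mice stand behind a library, so the p-values measure the spread between these libraries, which may be technical.

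Malat1 and Neat1 are nuclear RNAs. Malat1 collects in nuclear speckles, where splicing factors are stored, and Neat1 is the scaffold of paraspeckles, nuclear bodies that hold RNA-binding proteins. The snoRNA hosts are spliced RNAs whose introns, once cut out, are trimmed to snoRNAs, the guides that direct chemical modification or cleavage of ribosomal RNA. Several host RNAs, Gas5 among them, belong to the 5′TOP class, whose RNAs begin with a run of pyrimidines and are translated in step with growth signals. Their exons hold no long reading frame, so that ribosome passage sends them to nonsense-mediated decay, and Gas5 was first isolated because it accumulates in growth-arrested cells.

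The 4 libraries held an estimated 18.6 to 21.9 M mapped fragments each, read from the steps between low FPKM values. Of the T cell markers, all 8 were detected in every library. Their summed level was 3016 and 3004 FPKM in CNS and 1251 and 1141 FPKM in dLN. In the test given below, 6 of them were higher in CNS, 1 was lower (Cd44) and 1 did not pass (Cd2). Cd4 was at 502 and 531 FPKM in CNS and at 82.0 and 66.7 FPKM in dLN. Cd44 was at 112 FPKM in each CNS library and at 176 and 157 FPKM in dLN. CNS replicate 2 stood apart from the other libraries in myeloid genes: the summed level of 18 myeloid markers was 29.8 and 408 FPKM in CNS replicates 1 and 2 and 4.69 and 4.10 FPKM in dLN, where 10 of the 18 were at 0 in both libraries. Xist, which is transcribed from the inactive X chromosome of female cells, was at 0 and 0.00260 FPKM in CNS and at 26.6 and 22.3 FPKM in dLN, so tissue and the sex of the mice, as far as Xist shows it, cannot be told apart. Because these are bulk samples, fewer cells of a type and less RNA per cell cannot be told apart either.

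Each of the 9 genes was represented by a single RefSeq transcript, so that its gene level and its transcript level were the same value. Their 5′ ends are of interest because the pyrimidine run of 5′TOP RNAs lies there. RefSeq promoter entries of mouse build GRCm38.p6, the patch of the build mm10 used in the tables, were found for 7 of the 9 genes, without Neat1 and Snhg6. For the 6 snoRNA hosts among them, 40 bases before to 30 bases from the annotated start are printed 5′ to 3′ on the strand of the gene, and capitals mark the longest run of C and T between 10 bases before and 20 bases after the start. They lie at chr1:161035126-161035195 (plus strand), chr19:8723447-8723516 (plus), chr9:88522868-88522937 (minus), chr4:132308638-132308707 (plus), chr4:132353657-132353726 (minus) and chr3:123508307-123508376 (minus).
Gas5: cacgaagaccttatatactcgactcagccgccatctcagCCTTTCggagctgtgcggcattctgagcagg
Snhg1: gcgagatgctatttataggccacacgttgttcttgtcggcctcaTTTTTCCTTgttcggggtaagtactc
Snhg5: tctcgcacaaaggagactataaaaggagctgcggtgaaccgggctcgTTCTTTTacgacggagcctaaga
Snhg12: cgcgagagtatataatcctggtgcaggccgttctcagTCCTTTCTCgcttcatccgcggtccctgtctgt
Snhg3: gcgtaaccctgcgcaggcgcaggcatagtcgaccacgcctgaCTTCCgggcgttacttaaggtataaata
Snhg8: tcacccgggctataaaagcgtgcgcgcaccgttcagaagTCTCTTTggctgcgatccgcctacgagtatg

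The marked runs were 9 bases in Snhg1 and Snhg12, 7 in Snhg5 and Snhg8, 6 in Gas5 and 5 in Snhg3. In Gas5 and Snhg8 the run begins 1 base before the annotated start and in Snhg12 3 bases before, so it crosses the start. In Snhg3, Snhg1 and Snhg5 it begins at base 3, 5 and 8 of the annotated RNA, and so not at its 5′ end. Among 32851 RefSeq promoters the median run was 4 bases, a run of at least 9 was found in 7.1%, a run of at least 7 in 17.9%, a run of at least 6 in 28.7% and a run of at least 5 in 46.4%. In Malat1 the run was 4 bases, a length reached by 68.6% of promoters. The letters TATAAA or TATATA, searched on the strand of the gene between 45 and 16 bases before the start, were present in Gas5, Snhg5, Snhg8 and Snhg12 and in 2.96% of all promoters. Such a match describes the letters of the reference and was not related here to any measurement of binding or translation.

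The tables' models of these genes differed in how much of the gene they cover. In GENCODE M21, 10 snoRNA entries lie within Gas5 (chromosome 1, 161035166 to 161038537), among them Snord47, Snord78, a pair of overlapping entries named Snord80 and an entry typed as snoRNA that bears the microRNA name Mir5117, and 8 lie within Snhg1 (chromosome 19, 8723487 to 8726326). Snhg3 holds Snora73a and Snora73b, Snhg5 holds Snord50a and Snord50b, Snhg6 holds Snord87, Snhg8 holds Snora24, and Snhg12 holds 5 entries, with a pair of overlapping ones named Snora16a. The Gas5 model is 2554 bases long, covers 75.7% of the span of the gene and matches a GENCODE transcript of the retained-intron class, whereas the other GENCODE transcripts outside that class are 346 to 665 bases long. The 785 bases of the Snhg8 model likewise form a single exon across its whole span, Snora24 included. Reads from introns and exons therefore cannot be told apart for these genes, and their FPKM relative to other members rests on a length that may not be that of the spliced RNA. The Neat1 model, 3177 bases at chromosome 19, 5842302 to 5845478 on the minus strand, covers the stretch of the short form. That stretch is the 5′ end of the GENCODE gene, which spans 20771 bases, as does its longest transcript. Reads of the short and long forms therefore cannot be told apart in it.

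Whether noncoding RNA of this class differs between effector CD4 cells of CNS and dLN was read from the 4 libraries. Of the 9 genes, 5 were lower in CNS (Gas5, Snhg1, Snhg5, Snhg6 and Snhg12), 1 was higher (Snhg3) and 3 did not pass the test (Malat1, Neat1 and Snhg8), with limma on log2(FPKM + 1) and Benjamini-Hochberg adjusted p under 0.05 over all genes tested. The tissues differed in most genes: 74.9% of the 10634 genes passed in either direction, 37.2% as lower and 37.8% as higher in CNS, so that 6 of 9 called is not above the background. The balance of directions turned with the scaling, to 3423 genes higher and 4522 lower in CNS at the same sum in every library and to 4468 higher and 3569 lower at the same upper quartile. The same 6 genes had libraries that did not overlap between the tissues, which was the case for 89.4% of all genes (43.7% with CNS lower and 45.7% with CNS higher). The median log2 ratio of CNS over dLN was -0.75 over the 7 snoRNA hosts and -0.42 over all 9 genes, beside 0.05 over all genes tested, whose middle 50% lay between -0.74 and 0.86. Without CNS replicate 2, the library with the most myeloid transcripts, the 6 called genes kept their signs. Their log2 ratios were -1.59 (Gas5), -1.40 (Snhg1), -0.87 (Snhg5), -0.89 (Snhg6), -0.40 (Snhg12) and 0.76 (Snhg3). That fit holds 1 CNS library, which itself had 29.8 FPKM of myeloid markers, beside 4.69 and 4.10 FPKM in dLN. It therefore does not set myeloid RNA aside, and the part of that RNA was not tested. With 2 libraries against 2, an exact permutation test of a single gene cannot go below p = 0.333, so the tests lean on the spread shared across genes.

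**Figure D1:**
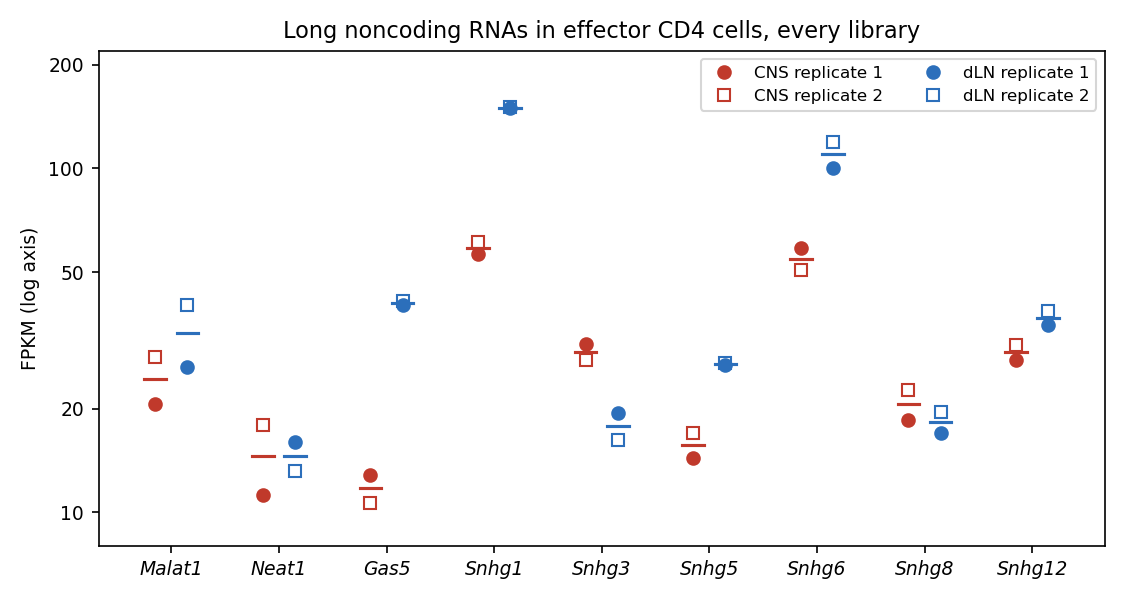
Level of each of the 9 noncoding RNAs in every library, in FPKM on a log axis, 2 CNS and 2 dLN libraries per gene. Gas5, Snhg1, Snhg5, Snhg6 and Snhg12 lie lower in both CNS libraries, Snhg3 lies higher, and the libraries of Malat1, Neat1 and Snhg8 overlap.

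The summed level of the 7 snoRNA hosts lay lower in both CNS libraries. It was 219 and 221 FPKM in the CNS libraries and 389 and 413 FPKM in the dLN libraries. Malat1 and Neat1 together summed to 31.8 and 46.2 FPKM in CNS and to 42.4 and 53.3 FPKM in dLN, with overlapping libraries. Snhg1 and Snhg6 were the highest of the 9 per length in all 4 libraries.

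Gas5, a regulator of growth arrest that also binds the glucocorticoid receptor, showed the largest difference of the 9. Its level was 12.8 and 10.7 FPKM in CNS and 40.1 and 41.2 FPKM in dLN, with means of 11.8 ± 1.53 and 40.6 ± 0.791 (SD, n = 2). Both CNS libraries were far below both dLN libraries. The log2 ratio was -1.71 (SE 0.11, 95% interval -2.01 to -1.42, limma adjusted p = 0.00023), a 3.46-fold lower mean in CNS, and 7.77% of the genes tested had a lower ratio. Ordered by FPKM among the 9 genes, it ranked 3 in both dLN libraries and 8 and 9 in the CNS libraries. The estimate rests on 544 to 2141 fragments per library.

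Snhg1, host of a series of C/D box snoRNAs, was the most abundant member in dLN per length. It was at 56.6 and 61.1 FPKM in CNS and at 150 FPKM in each dLN library, a log2 ratio of -1.34 (SE 0.08, 95% interval -1.55 to -1.13, limma adjusted p = 0.000184) and a 2.56-fold lower mean in CNS. The dLN libraries were nearly equal, and the tissues were far apart.

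Snhg6, host of the C/D box snoRNA Snord87, was at 58.5 and 50.7 FPKM in CNS and at 101 and 120 FPKM in dLN. Every CNS library was below every dLN library. Its log2 ratio was -0.997 (SE 0.13, 95% interval -1.33 to -0.67, limma adjusted p = 0.00164), a 2.02-fold lower mean. Snhg5, host of Snord50a and Snord50b, was at 14.3 and 17.1 FPKM in CNS and at 26.9 and 27.3 FPKM in dLN, again without overlap. Its log2 ratio was -0.75 (SE 0.11, 95% interval -1.04 to -0.47, limma adjusted p = 0.00267).

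Snhg12, which carries both H/ACA and C/D box snoRNAs, had the smallest difference of those called. Its level was 27.7 and 30.7 FPKM in CNS and 35.1 and 38.5 FPKM in dLN. The tissues did not overlap but were close, with 1.26-fold between their means. The log2 ratio was -0.33 (SE 0.10, 95% interval -0.59 to -0.06, limma adjusted p = 0.0337). Its call was lost without CNS replicate 1 (-0.25), dLN replicate 1 (-0.39) or dLN replicate 2 (-0.26), with limma adjusted p of up to 0.166, and at the same upper quartile in every library (-0.19, limma adjusted p = 0.136).

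Snhg3, the host of the H/ACA box snoRNAs Snora73a and Snora73b, was the only member called higher in CNS. It was at 30.8 and 27.8 FPKM in CNS and at 19.5 and 16.3 FPKM in dLN. Both CNS libraries were above both dLN libraries, by 1.64-fold between the means. The log2 ratio was 0.69 (SE 0.12, 95% interval 0.37 to 1.002, limma adjusted p = 0.00514). Snhg3 is short, 437 bases, and rests on 87 to 181 fragments per library, where counting alone gives a coefficient of variation of up to 10.7%. Without CNS replicate 1 its log2 ratio was 0.61, at a limma adjusted p of 0.05002, just above the threshold.

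Malat1, Neat1 and Snhg8 did not pass the test, which does not show that their levels were alike. Malat1 was at 20.6 and 28.3 FPKM in CNS and at 26.4 and 40.1 FPKM in dLN. The dLN mean was the higher, and the libraries of the tissues overlapped. Replicate 2 was above replicate 1 in both tissues, by 1.37-fold in CNS and 1.52-fold in dLN, beside 1.36-fold between the tissue means. Its log2 ratio was -0.42 (SE 0.25, 95% interval -1.06 to 0.23, limma adjusted p = 0.186), although it rests on 2938 to 5981 fragments per library, the most of the 9 genes. Malat1 ends in a folded structure in place of an ordinary poly(A) tail, and the library kit used selects on poly(A).

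Neat1 was at 11.2 and 17.96 FPKM in CNS and at 15.98 and 13.2 FPKM in dLN. The CNS libraries were the lowest and the highest of the 4, and the tissue means, 14.6 ± 4.76 and 14.6 ± 1.98 FPKM (SD, n = 2), were the same at this rounding. The log2 ratio was -0.03 (95% interval -0.64 to 0.59, limma adjusted p = 0.919), and its sign turned at the same upper quartile in every library (0.10) and without CNS replicate 1 (0.29) or dLN replicate 1 (0.10). Both nuclear RNAs were higher in CNS replicate 2, the library with 408 FPKM of myeloid markers, than in CNS replicate 1 with 29.8 FPKM. This was not particular to them: Snhg1, Snhg5, Snhg8 and Snhg12 were higher there too, while Gas5, Snhg3 and Snhg6 were lower. The part of myeloid RNA in these levels was not tested.

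Snhg8, host of the H/ACA box snoRNA Snora24, was at 18.5 and 22.8 FPKM in CNS and at 17.0 and 19.6 FPKM in dLN. These values overlap. The log2 ratio was 0.16 (95% interval -0.20 to 0.52, limma adjusted p = 0.329), with -0.027 once all libraries were scaled to the same sum.

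**Figure D2:**
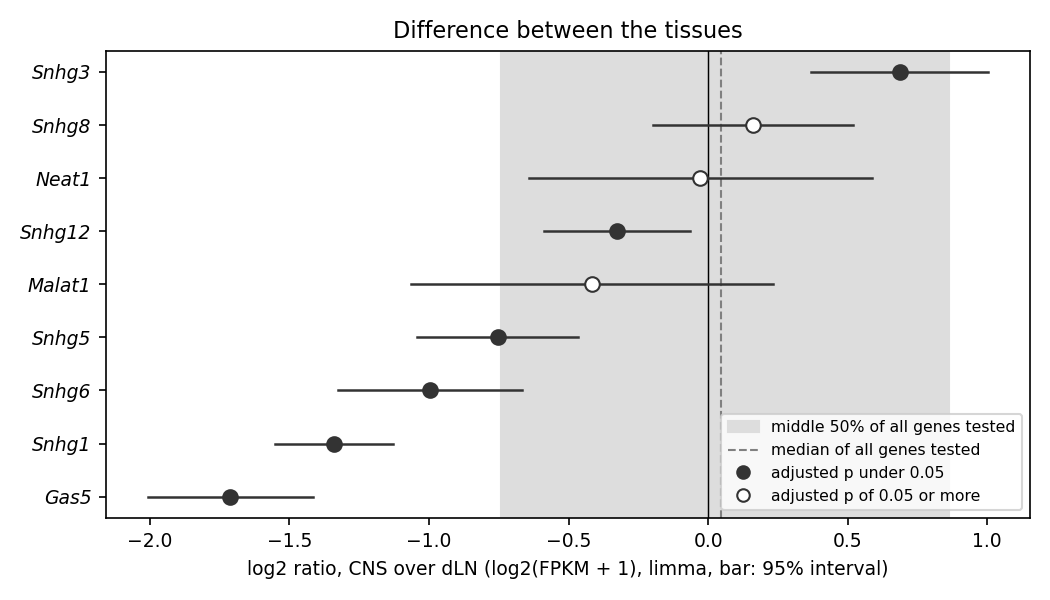
Log2 ratio of CNS over dLN of log2(FPKM + 1) for the 9 noncoding RNAs, with 95% intervals from limma, against the middle 50% of all genes tested (shaded). Gas5 at -1.71 and Snhg1 at -1.34 lie farthest to the left, Snhg3 at 0.69 is the only called gene on the right, and the intervals of Malat1, Neat1 and Snhg8 cross 0.

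Some of these genes start close to another gene, and the library kit does not mark strand, so reads of overlapping partners cannot be told apart. Slc3a2, the heavy chain shared by several amino acid transporters, has a transcript that starts 118 bases from Snhg1 on the opposite strand. That transcript was at 1.79 and 2.40 FPKM in CNS and 0.795 and 0.993 FPKM in dLN, a small portion of the gene. Slc3a2 as a whole was at 88.6 and 102 FPKM in CNS and at 200 and 212 FPKM in dLN, a log2 ratio of -1.10 (limma adjusted p = 0.00054). Zbtb37, a zinc finger gene 907 bases from the start of Gas5 on the opposite strand, was at 1.18 and 1.31 FPKM in CNS and 1.21 and 1.42 FPKM in dLN, without a called difference (log2 ratio -0.04, limma adjusted p = 0.784), which turned sign at the same upper quartile (0.032) and without dLN replicate 2 (0.022). Rcc1, the nucleotide exchange factor of the GTPase Ran, is a larger gene that overlaps Snhg3 on the same strand in GENCODE. Snhg3 starts upstream of it, at 132353686 against 132353605 on chromosome 4. No Rcc1 transcript with deposited values overlapped the Snhg3 model or lay within 2 kb of it. Rcc1 was at 9.55 and 9.06 FPKM in CNS and at 90.6 and 100 FPKM in dLN (log2 ratio -3.22, limma adjusted p = 8.12e-05), the reverse of the direction of Snhg3.

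**Figure D3:**
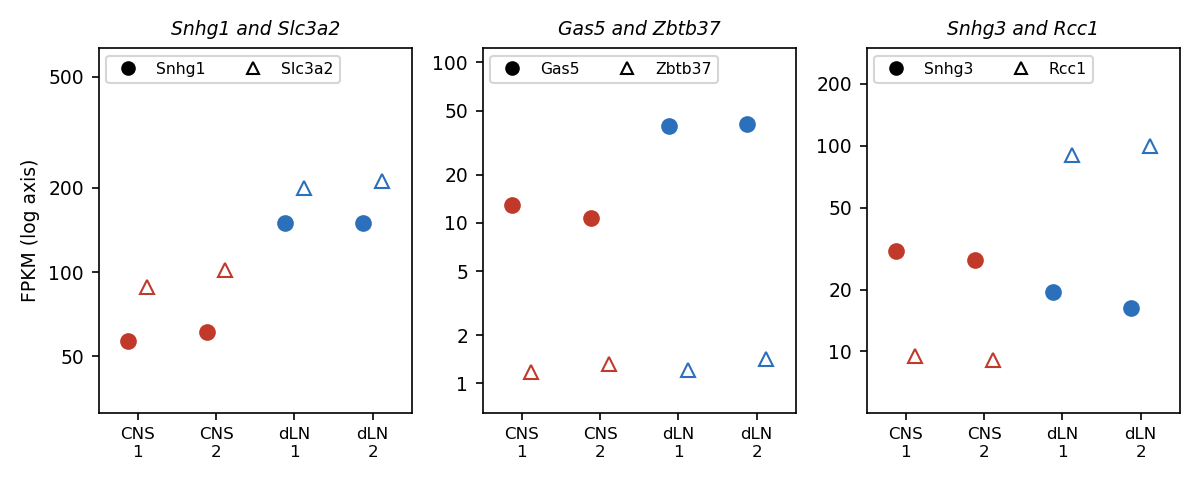
Level in FPKM (log axis) of Snhg1, Gas5 and Snhg3 (filled circles) and of Slc3a2, Zbtb37 and Rcc1 (open triangles), summed over each gene's transcripts, in every library. Snhg1 and Slc3a2 are both lower in CNS, Zbtb37 overlaps between tissues while Gas5 is lower in CNS, and Rcc1 at 9.06 to 100 FPKM runs against Snhg3.

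The snoRNAs themselves were hardly measured. The tables hold 8 snoRNA rows inside the 9 genes, of 56 to 136 bases, shorter than a usual sequenced fragment, and 5 of them were at 0 in every library. Snord22, inside Snhg1, was listed at 0 and 25.3 FPKM in CNS and at 129 and 123 FPKM in dLN. Snora16a, inside Snhg12, was listed at 14.02 FPKM in dLN replicate 2 and at 0 in the other libraries. These rows lie inside the host genes, so reads of host and snoRNA cannot be told apart in them. Mature snoRNAs also carry no poly(A) tail, on which the library kit selects. The rows are given as values without a test.

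The lower level in CNS was not shared by every snoRNA host. Of 15 other long noncoding snoRNA hosts, 11 were tested, of which 8 were lower in CNS, 1 was higher and 2 did not pass. Their median log2 ratio was -0.99. Over all genes tested, 37.2% passed as lower and 37.8% as higher in CNS. Snhg15, listed as Gm11974, was at 8.22 and 9.74 FPKM in CNS and at 84.3 and 96.2 FPKM in dLN, a log2 ratio of -3.19. Snhg17 (listed as 9430008C03Rik) at -2.67 and Snhg20 (2810008D09Rik) at -2.55 followed. Zfas1, listed as 1500012F01Rik and known as a 5′TOP host of Snord12 family snoRNAs, was the one higher in CNS, like Snhg3, at 96.6 and 94.6 against 47.6 and 46.2 FPKM (log2 ratio 1.01, limma adjusted p = 0.000323). With the members, 18 long noncoding hosts were tested, 13 lower, 2 higher and 3 not called.

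Protein-coding hosts, which carry snoRNAs in introns of genes for ribosomal proteins and nucleolar or translation factors, behaved as a mixed list. Of 33 tested, 17 were higher in CNS, 10 were lower and 6 did not pass, with a median log2 ratio of 0.25. Over all genes tested, 37.8% were higher and 37.2% lower. The share of these hosts called in either direction is not far above the 74.9% of all genes. Rpl13a at 1.36 and Eef2, the elongation factor of translation, at 0.93 were among the highest of those called. Dkc1 at -3.39, Rcc1 at -3.22 and Nop56 at -3.05 were the lowest. Split after the values were seen, 13 of 20 ribosomal protein hosts were higher and 1 was lower, while 9 of the 13 other hosts were lower and 4 were higher.

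RNAs that encode proteins binding snoRNAs were lower in CNS without exception on the list. The genes of all 8 core proteins of snoRNA particles passed as lower, with a median log2 ratio of -2.55. By comparison, 37.2% of all genes tested passed as lower. Their summed RNA level was 324 and 368 FPKM in CNS and 1853 and 1974 FPKM in dLN. The proteins themselves were not measured in these libraries. Among them were Dkc1 (-3.39), the pseudouridine synthase of H/ACA particles, and Nop56 (-3.05) and Nop58 (-3.02), scaffolds of C/D particles. Of these genes Nop56, Nop58 and Dkc1 also stand on the list of protein-coding hosts.

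While neither Malat1 nor Neat1 was called, the RNAs of most proteins of the nuclear bodies they occupy were lower in CNS. The Neat1 value does not tell its short and long forms apart. Of 15 nuclear speckle protein genes, 14 were lower and 1 did not pass, with a median log2 ratio of -1.24. They were led by the splicing factors Srsf7 (-2.70), Srsf1 (-2.38) and Srsf6 (-2.28). Of 14 paraspeckle protein genes, 8 were lower, 5 did not pass and 1 was higher, with a median of -0.53. For all genes tested the shares were 37.2% lower and 37.8% higher. The share of paraspeckle genes called in either direction is below the 74.9% of all genes. Tardbp (-1.91), Rbm14 (-1.09) and Ewsr1 (-1.09) were the lowest. Nono, an essential paraspeckle protein, was the one called higher (0.38), a call that was lost without CNS replicate 1 (0.35) or dLN replicate 2 (0.32) and at the same sum in every library (0.18).

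Genes of factors that act on host RNAs in the cytoplasm were counted in the same way, by their RNA levels. Of 10 nonsense-mediated decay factors, 5 were lower, 3 were higher and 2 did not pass, with a median log2 ratio of -0.33, which is near the background of 37.2% lower and 37.8% higher among all genes. Smg5 (-1.25), Smg8 (-1.21) and the helicase Upf1 (-1.15) were the lowest, and Upf3a (0.80) and Upf3b (0.60) were the highest. Smg9 (0.41) lost its call without CNS replicate 2 (0.24), dLN replicate 1 (0.40) or dLN replicate 2 (0.41), at the same sum in every library (0.22) and with no filter on low values (0.41, limma adjusted p = 0.0857). Of 12 regulators of 5′TOP translation, 8 were lower, 1 was higher and 3 did not pass, with a median of -0.61. Their share called in either direction is close to the 74.9% of all genes, with more of them lower than in that background. Eif4ebp1 (-2.56), the repressor of cap-dependent translation, Larp1 (-2.24), which binds 5′TOP RNAs, and Rheb (-1.08), the activator of mTORC1, were the lowest. Tsc2 (0.35), the brake on Rheb, was called higher and lost the call whichever library was left out, at log2 ratios of 0.31 to 0.39, at the same sum (0.18) and when the highest transcript alone stood for the gene (0.45, limma adjusted p = 0.0768).

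Among 18 other long noncoding RNAs, 11 were tested, of which 6 were lower, 2 were higher and 3 did not pass. Their median log2 ratio was -0.48. The share called in either direction is close to the 74.9% of all genes, of which 37.2% were lower and 37.8% higher. Beside Xist (-4.66), the microRNA hosts Mir17hg (-3.75) and Mir22hg (-2.30) were the lowest. Neither call of a higher gene held in every fit with a library left out. Rmrp (1.38) lost the call without CNS replicate 2 (0.91) or dLN replicate 1 (1.08), and with no filter on low values (1.38, limma adjusted p = 0.0732). Lncpint, listed as Lincpint (0.78), lost it without CNS replicate 1 (0.66), CNS replicate 2 (0.90) or dLN replicate 1 (0.55).

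**Figure D4:**
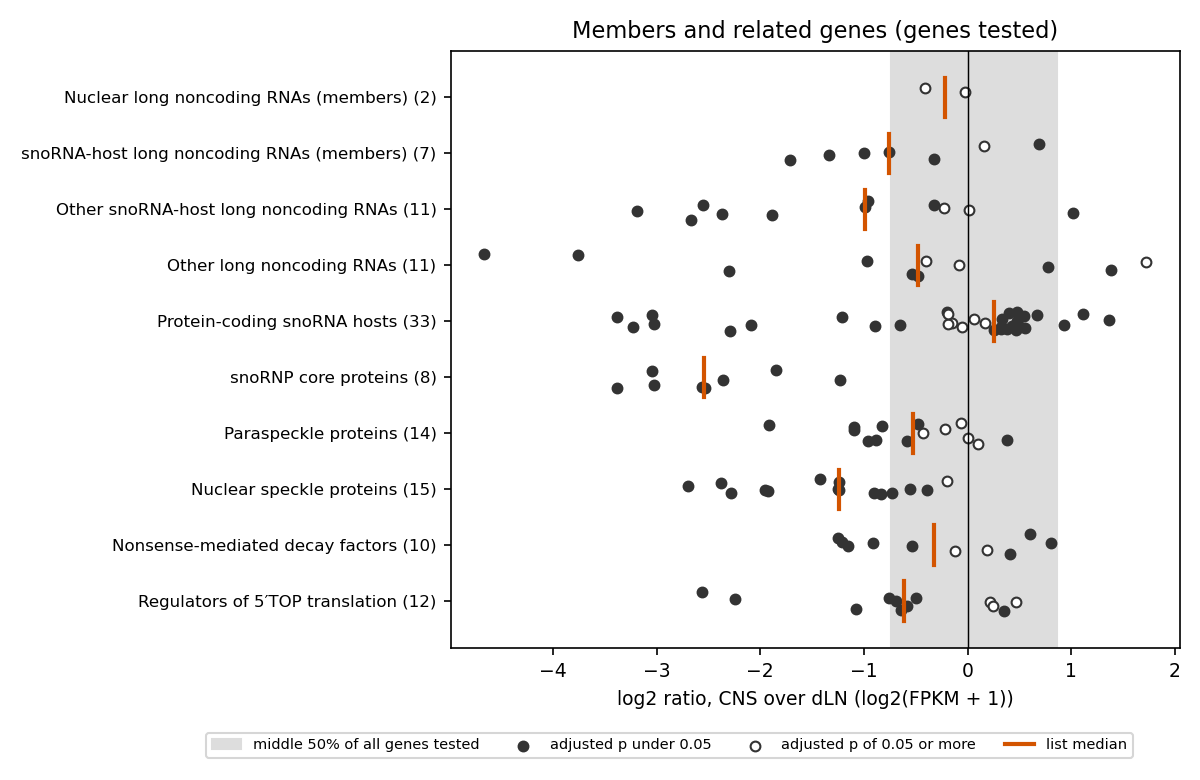
Log2 ratio of CNS over dLN for every tested gene of 10 lists, 1 point per gene, filled where the adjusted p was under 0.05, with list medians as bars and the middle 50% of all genes tested shaded. The snoRNA-host noncoding RNAs lie mostly to the left with single genes to the right. The genes of snoRNP core proteins lie wholly to the left, and protein-coding hosts spread to both sides.

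The tissues also differed in genes that mark the stimulation and handling of the cells. Of 9 genes induced by PMA and ionomycin, 6 were lower in CNS, 2 were higher (Fos and Junb) and 1 did not pass. Their summed level was 1735 and 2592 FPKM in CNS and 7921 and 9250 FPKM in dLN. Single genes differed far more than the sum: Il2 was at 18.2 and 38.8 FPKM in CNS and at 5363 and 6176 FPKM in dLN. Fos ran the other way, at 442 and 574 FPKM in CNS and at 43.6 and 58.9 FPKM in dLN. Of 6 heat-shock genes, 4 were higher, 1 was lower and 1 did not pass. Their summed levels were 6669 and 8223 FPKM in CNS and 2382 and 2377 FPKM in dLN. Hspa8 alone held 2668 and 2760 FPKM of the CNS sums and 1711 and 1699 FPKM of the dLN sums. Hspa1a was at 1367 and 2082 FPKM in CNS and at 5.69 and 3.76 FPKM in dLN. Hspa1b was at 1708 and 2387 FPKM in CNS and at 4.47 and 2.70 FPKM in dLN. Both lists move in the same contrast as Gas5 and the other hosts, and their part in the result was not tested. Of 10 neural markers 4 were tested, of which 2 were higher in CNS, 1 was lower and 1 did not pass, and 7 of the 10 were at 0 in both dLN libraries. Nefl, a neurofilament, was at 1.34 and 7.01 FPKM and Gfap, an astrocyte filament, at 0.655 and 2.51 FPKM in CNS, and both were listed at 0 in dLN. These calls were lost without dLN replicate 1 or dLN replicate 2 and with no filter on low values, with limma adjusted p of up to 0.0923 for Nefl and 0.105 for Gfap. Mbp, a myelin protein, was called lower, at 48.6 and 44.5 FPKM in CNS and 55.5 and 57.7 FPKM in dLN (log2 ratio -0.28). The call was lost without CNS replicate 2 (-0.22), dLN replicate 1 (-0.30) or dLN replicate 2 (-0.25) and at the same upper quartile (-0.14). It was also lost with eBayes without trend and with a replicate block, at the reported log2 ratio. Mbp makes up most of the summed neural level of 51.4 and 57.0 FPKM in CNS and 55.7 and 58.0 FPKM in dLN. The part of neural RNA in the results was not tested. B cell markers summed to 1.76 FPKM at most, and those of CD8 T and NK cells to 9.76 FPKM at most.

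The genes nearest in pattern to 3 of the RNAs were found by the smallest root mean square difference of centred log2(FPKM + 1) over the 4 libraries, among the 6409 genes whose mean reached 10 FPKM in either tissue. Nearest to Gas5 were Rrp8 (0.0252), Peo1 (0.0283) and Rpf1 (0.0300). Rrp8 and Rpf1 encode nucleolar proteins of ribosome production, and Peo1 the helicase of mitochondrial DNA. Nearest to Malat1 were Psmg4 (0.110), 1810043H04Rik (0.128) and Pex16 (0.133), and nearest to Neat1 were Rbm38 (0.0636), Fhl3 (0.0823) and Kcnn4 (0.0910). The likeness is a description over 4 libraries.

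**Figure D5:**
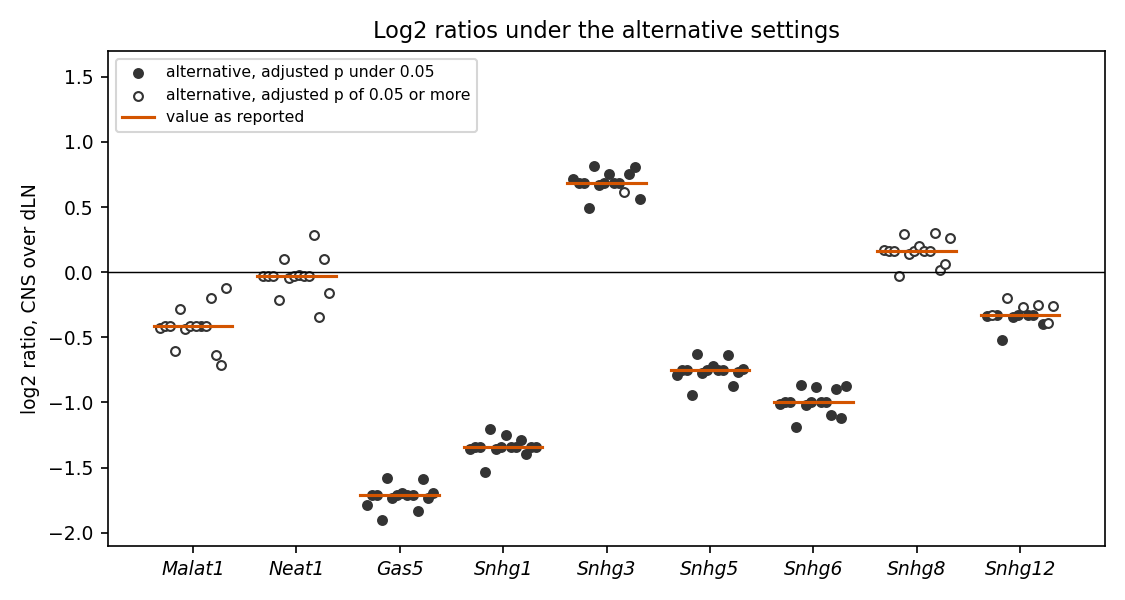
Log2 ratio of CNS over dLN of the 9 noncoding RNAs under every setting tried, 1 point per setting, with the reported value marked. Gas5, Snhg1, Snhg5 and Snhg6 stay below 0 and Snhg3 above 0 throughout, while Neat1 (-0.34 to 0.29) and Snhg8 (-0.027 to 0.30) cross it.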

How the data were processed

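RNA of sorted CD44+CD4 cells was sequenced in 4 libraries, 2 of CNS and 2 of dLN. After trimming and mapping, the authors deposited values in FPKM for 33819 RefSeq transcripts of build mm10, 1 table per tissue. The program behind the FPKM is not given in the sources used here. In the CNS table both library names share 1 header cell, and its value columns took those names in their order.

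FPKM was summed by gene symbol (23990 symbols), leaving out 565 transcripts without one. Genes reaching a mean of 1 FPKM in either tissue were tested with limma 3.58.1 (R 4.3.3, lmFit and eBayes with trend) on log2(FPKM + 1), a scale that understates changes of low genes, fitting tissue alone, and p-values were adjusted by Benjamini-Hochberg over 10634 genes (threshold 0.05). Fold changes called means are ratios of mean FPKM. On simulated data of 10634 genes with a log2 change of 2 in 200 of them, 177 were recovered, with 12 false calls. The simulation had independent noise, few changed genes and no difference in scaling, while 74.9% of genes were called in the data. It therefore checks that the test runs and does not give the error rate of these calls.

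The depth of a library was read from steps between low FPKM values of transcripts over 1000 bases, of which 89.0% to 92.1% came out as whole fragments within 0.05 (10% by chance). The estimate includes a fitted length offset and was tested on simulated libraries (largest error 0.211%). Fragment numbers are estimates and entered no test.

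Named genes are the 9 members, genes starting within 2 kb of them or overlapping them, snoRNA rows inside them, up to 3 called genes at each end of a list, and the 3 genes nearest in pattern to Malat1, Neat1 and Gas5. A gene that this rule names is not reported here. Members and lists were chosen with earlier results of these data known. Gene structure came from GENCODE M21. Python 3.11.15 with numpy 2.4.6, pandas 2.3.3 and matplotlib 3.10.9 served for all else. Alternatives covered the pseudocount, filters, 3 scalings, the highest transcript, the replicate block, eBayes without trend and each library left out. FPKM per full transcript length was added after the data were seen.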

Additional observations from a re-analysis of the deposited data

How the results depend on the processing

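Gas5, Snhg1, Snhg5 and Snhg6 kept their direction and their call under every alternative run, with log2 ratios of -1.83 to -1.59, -1.40 to -1.29, -0.87 to -0.64 and -1.12 to -0.87 when each library was left out in turn. Snhg3 gave 0.56 to 0.81 and lost its call without CNS replicate 1 (0.61, limma adjusted p = 0.05002). Snhg12 gave -0.40 to -0.25 with a library left out, and also lost its call with no filter (-0.33, limma adjusted p = 0.05003), at the same upper quartile (-0.19) and per full transcript length (-0.27, limma adjusted p = 0.0508). Malat1 gave -0.71 to -0.12 with a library left out. Neat1 turned to 0.10 at the same upper quartile and gave -0.34 to 0.29 with a library left out. Snhg8 turned to -0.027 at the same sum and gave 0.02 to 0.30. Zbtb37 turned to 0.032 at the same upper quartile and gave -0.11 to 0.022 with a library left out (0.022 without dLN replicate 2). The cause was not tested. The number of these genes called was 5 to 7 across settings and 4 to 6 with a library left out, beside 6 reported, and the number called lower was 4 to 6 and 4 to 5, beside 5. Over all genes, 6518 to 8477 were called across settings and 6596 to 7363 with a library left out, beside 7968. The same sum moved the median log2 ratio of all genes by -0.17 and the same upper quartile by 0.12.

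Libraries are numbered 1 and 2 within each tissue by the labels. Deviations of same-numbered libraries correlated at 0.0933 across genes, and with 2 pairs only, the numbers were treated as no pairing. With a replicate block 7828 genes were called, and of the 9 RNAs Malat1 (-0.42, limma adjusted p = 0.0184) was added to the 6 called. For other named genes, 537 of 552 values under other settings and 198 of 224 with a library left out kept direction and call. Most of those other genes were named because they were called and stood at an end of their list. The share of them that kept a call is thus not a measure for genes in general. Snhg3, at 87 to 181 fragments per library, had the least depth of the 9.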
